A study of Rattus norvegicus with 4 samples.

Results

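The Slc25 genes encode the mitochondrial carrier family, and their transcripts were followed in the skeletal muscle of hyperactive mutant SPORTS rats and wild-type (WT) rats. Members were all rat genes whose symbol is Slc25a followed by a number. Of 49 such symbols in the RefSeq gene table, 38 were matched by at least 1 probe of the array, out of 26624 genes or unnamed accessions measured. The other 11 (Slc25a6, Slc25a12, Slc25a13, Slc25a26, Slc25a31, Slc25a36, Slc25a40, Slc25a43, Slc25a45, Slc25a48 and Slc25a52) were not analysed here.

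Mitochondrial carriers are small proteins of the inner mitochondrial membrane that move nucleotides, phosphate, carboxylates, amino acids, acylcarnitines and coenzymes between the cytosol and the matrix. Most exchange a solute on the matrix side for another on the outer side. In skeletal muscle they supply ADP and phosphate to ATP synthase, release ATP to the contractile apparatus, and carry fuel and reducing equivalents inward. A few relatives lie elsewhere, such as Slc25a17 in the peroxisome and Slc25a46 in the outer mitochondrial membrane.

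The samples came from male rats aged 15 weeks, and both genotypes were Wistar. WT muscle, which the design text calls sedentary, gave 2 arrays, while an exercised SPORTS rat and a sedentary SPORTS rat gave 1 array each. The labels name neither the mutation, the muscle nor the kind of exercise. The WT arrays may come from 1 animal, since their titles share a first number, so the spread behind each p-value is that of these samples alone and may be technical.

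The arrays were of 1 colour and on 1 slide, and their number limits the precision of every value. The share of probes well above background was 48.7% and 48.9% in WT, 46% in exercised SPORTS and 50.3% in sedentary SPORTS muscle. The 5 skeletal muscle markers on the array (Ckm, Acta1, Des, Mb and Mybpc1) were well above background on all 4 arrays. Their log2 differences from WT on the exercised array were, in that order, 0.48, 0.33, 0.41, -0.23 and -0.61. Of the heart markers, Myh6 was at -1.60 there, and Nppa and Nppb were well above background on no array. The exercised array stood apart from the other 3 over all genes. In the 7 slow fibre markers its summed level was 440 (in units of the array's 75th percentile signal), against 2060 and 2010 in WT and 1910 in sedentary SPORTS muscle. The 8 fast fibre markers summed to 2460 on the exercised array, 782 and 790 in WT and 192 in sedentary SPORTS muscle. Those fibre markers move with the carrier differences reported for the exercised array, and their part in them was not tested. In bulk muscle, fewer cells of a type and less RNA per cell cannot be told apart.

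A level is the log2 processed signal from which the array's 75th percentile was subtracted, so 0 is the 75th percentile and a step of 1 is 2-fold. Levels are compared between arrays for the same probe and never between genes. Of the 38 carriers, 27 were well above background on all 4 arrays. Slc25a1, the citrate carrier, was well above background on 2 arrays, WT array 1 and the sedentary SPORTS array. Slc25a18, a glutamate carrier, was well above background on the exercised array only. The remaining 9 were well above background on no array: Slc25a2, Slc25a15, Slc25a21, Slc25a27, Slc25a37, Slc25a41, Slc25a47, Slc25a53 and Slc25a54. The 28 carriers well above background on at least 2 arrays were tested, among 13326 genes tested in all. Between the WT arrays these 28 differed by a median of 0.06 and at most by 0.36 (Slc25a24), and 0 of them differed at least 2-fold, against 1.13% of all genes tested.

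**Figure D1:**
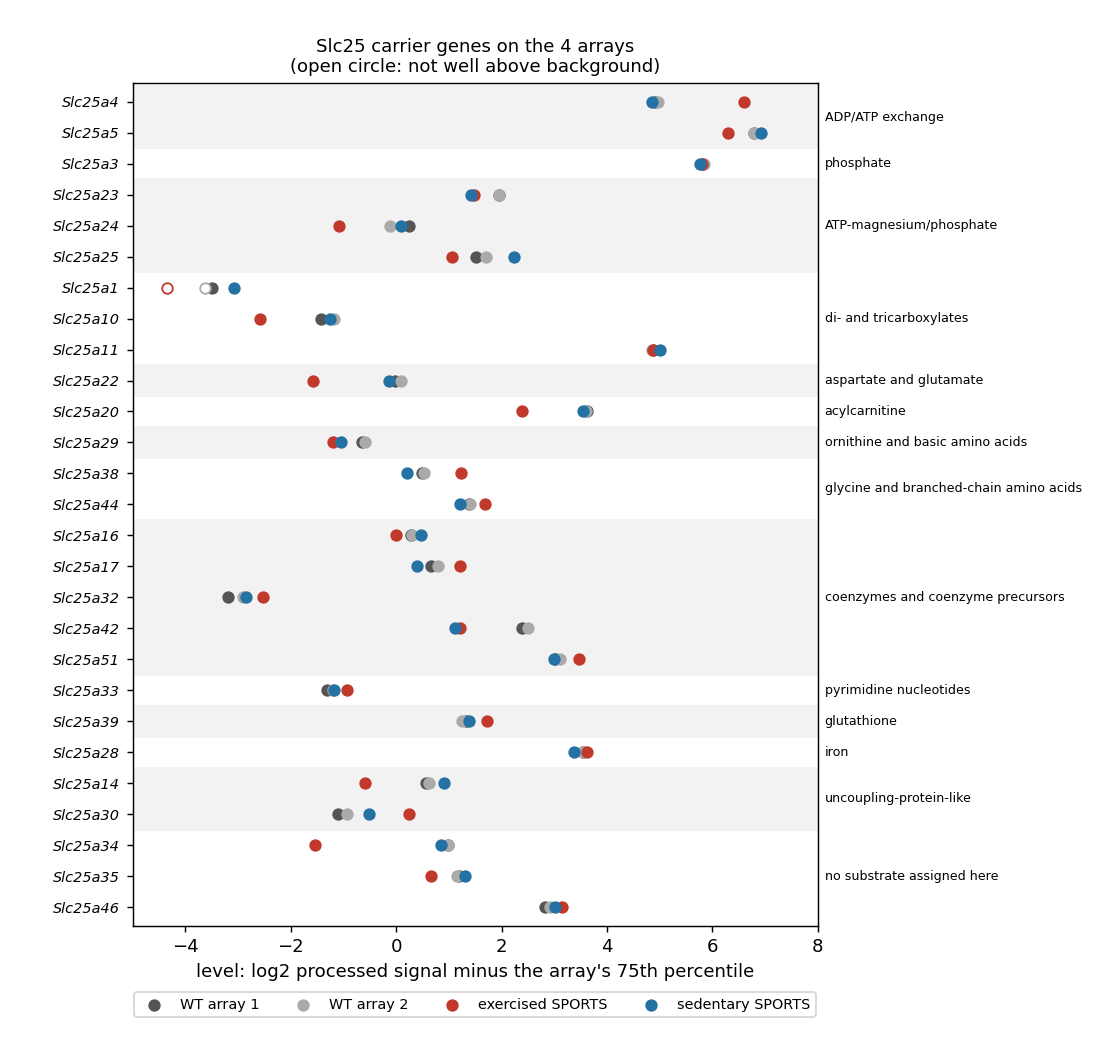
Levels of 27 tested carriers on each array (x axis: log2 signal relative to the array's 75th percentile; 1 point per array, rows ordered by substrate; open circles mark values not well above background). The exercised array lies apart from the other 3 for Slc25a4 at 6.60 and Slc25a34 at -1.53, while both SPORTS arrays lie below both WT arrays for Slc25a42.

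Promoter windows are shown for the 4 carriers on which the results turn. These are Slc25a4 and Slc25a5, the ADP/ATP exchangers that lay on opposite sides of WT on the exercised array, Slc25a34, which had the largest difference, and Slc25a42, which was lower on both SPORTS arrays. Each window runs from 250 bases before to 50 bases after the RefSeq start of the gene (build GRCr8), 5′ to 3′ on the gene's strand. The windows are chr16:52805271-52805570 (plus strand) for Slc25a4, chrX:120897366-120897665 (plus strand) for Slc25a5, chr5:159219843-159220142 (minus strand) for Slc25a34 and chr16:19247724-19248023 (plus strand) for Slc25a42. Capitals mark TATAAG in the first pair and the reverse complement of AAGGTCA in Slc25a34.
Slc25a4: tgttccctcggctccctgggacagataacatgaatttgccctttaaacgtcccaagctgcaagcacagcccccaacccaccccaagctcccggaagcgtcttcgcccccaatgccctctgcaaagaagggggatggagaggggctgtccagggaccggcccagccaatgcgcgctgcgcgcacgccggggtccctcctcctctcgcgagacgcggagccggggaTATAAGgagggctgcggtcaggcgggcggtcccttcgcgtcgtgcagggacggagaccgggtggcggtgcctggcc
Slc25a5: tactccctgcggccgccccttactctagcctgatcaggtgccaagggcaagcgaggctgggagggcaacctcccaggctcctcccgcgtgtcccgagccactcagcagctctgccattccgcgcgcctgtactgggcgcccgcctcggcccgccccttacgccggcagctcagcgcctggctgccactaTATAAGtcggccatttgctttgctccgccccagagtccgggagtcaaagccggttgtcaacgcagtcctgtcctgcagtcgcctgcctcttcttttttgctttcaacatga
Slc25a34: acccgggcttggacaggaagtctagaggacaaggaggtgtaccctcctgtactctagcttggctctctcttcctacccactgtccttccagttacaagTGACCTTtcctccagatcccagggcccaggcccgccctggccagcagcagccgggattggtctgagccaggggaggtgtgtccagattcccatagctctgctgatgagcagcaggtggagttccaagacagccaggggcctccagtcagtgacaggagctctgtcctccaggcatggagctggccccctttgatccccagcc
Slc25a42: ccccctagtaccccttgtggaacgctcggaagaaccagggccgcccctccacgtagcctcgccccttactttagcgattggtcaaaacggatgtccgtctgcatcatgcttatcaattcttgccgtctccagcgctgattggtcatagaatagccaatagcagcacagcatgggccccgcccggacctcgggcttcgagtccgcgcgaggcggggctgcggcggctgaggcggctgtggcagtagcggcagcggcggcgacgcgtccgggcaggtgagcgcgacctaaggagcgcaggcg

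RefSeq windows were matched for 33 of the 38 carriers and compared with 33469 windows of the same length, all searched on both strands. AAGGTCA, the estrogen-related receptor half-site, occurred in 1 of the 33 carrier windows (Slc25a34, first base at -152 from the start) and in 4.61% of all windows. CACGTG, an E-box, occurred in 3 (Slc25a2, Slc25a33 and Slc25a51) and in 6.42% of all windows. GCGCATGCG, a core of the nuclear respiratory factor site, occurred in 0 of the 33 and in 1.52% of all windows. TATAAG, searched for after the sequences were seen, occurred in 2 (Slc25a4 at -26 and Slc25a5 at -61) and in 7.91% of all windows. The Slc25a42 window held none of the 4 words. Median GC content was 60.3% over the carrier windows and 51.7% over all windows. A match describes the letters of a window only.

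Exercised SPORTS muscle was the sample in which the carriers differed most from WT. Among carriers of at least 2-fold difference, Slc25a4 and Slc25a30 rose, and Slc25a34, Slc25a22, Slc25a10, Slc25a20, Slc25a42, Slc25a14 and Slc25a24 fell. In all, 21 of the 28 tested carriers passed an adjusted p of 0.05 (limma, Benjamini-Hochberg over all 13326 genes), 7 higher and 14 lower, where 53.3% of all genes tested passed, 27.3% higher and 26.0% lower. A difference of at least 2-fold was seen for 2 carriers upward and 7 downward, against 20.6% of all genes tested, 8.61% higher and 12.0% lower. The median difference was -0.18 over the 28 carriers and 0.00 over all genes tested. With scaling by the array median these medians were 0.04 and 0.23, and the calls split into 11 higher and 11 lower. The share of all genes that passed under that scaling is not given. The exercised group is 1 array, which is assumed to vary like the WT pair, with 1 residual degree of freedom. Without a filter on dim genes all 38 carriers were tested, and 11 passed, not all of them among the 21 above. The gain came from the carriers well above background on fewer than 2 arrays, so it rests on dim values. Of the 21, Slc25a5, Slc25a16, Slc25a17, Slc25a23, Slc25a24, Slc25a25, Slc25a29, Slc25a35, Slc25a39, Slc25a44 and Slc25a51 no longer passed (adjusted p from 0.0509 to 0.12).

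In sedentary SPORTS muscle, Slc25a42 alone among the 28 carriers passed the test against WT, on the lower side. That is 0 higher and 1 lower, where 6.27% of all genes tested passed, 2.82% higher and 3.45% lower. Slc25a42 was also the 1 carrier at least 2-fold from WT, against 5.62% of all genes tested. At an unadjusted p under 0.05, 9 carriers and 4839 of all genes lay below the threshold. Over other ways of processing, the count that passed ran from 0 without a filter on dim genes to 6 with a variance trend. The share of all genes that passed in those settings is not given. The median difference was 0.03 over the carriers and -0.01 over all genes tested. Both comparisons share the WT arrays, so their values are given side by side below and are not independent.

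With both SPORTS arrays set against both WT arrays, 0 of the 28 carriers passed (limma), as for all genes tested, where 0% passed. At an unadjusted p under 0.05 there were 3 carriers and 982 genes in all, and the carriers' adjusted p ran from 0.322 to 0.977. Leaving out 1 SPORTS array makes this the comparison of the other with WT, given above, so it is no separate check. For 1 carrier, Slc25a42, each SPORTS array was at least 2-fold from each WT array in the same direction, against 1.92% of all genes tested.

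Between the SPORTS arrays, 10 carriers were at least 2-fold apart in measured signal, against 21.9% of all genes tested. They include Slc25a1, whose exercised value was not well above background and whose difference is bounded only at 1.29-fold or more, so 9 were at least 2-fold apart with dim values set to the array's floor. On the exercised array 2 were higher (Slc25a4 and Slc25a38), against 9.11% of all genes, and 8 were lower (Slc25a1, Slc25a10, Slc25a14, Slc25a20, Slc25a22, Slc25a24, Slc25a25 and Slc25a34), against 12.8%. With scaling by the array median the split was 3 higher and 5 lower, and the share of all genes under that scaling is not given. Each side is 1 array, so there is no replicate check and no test.

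**Figure D2:**
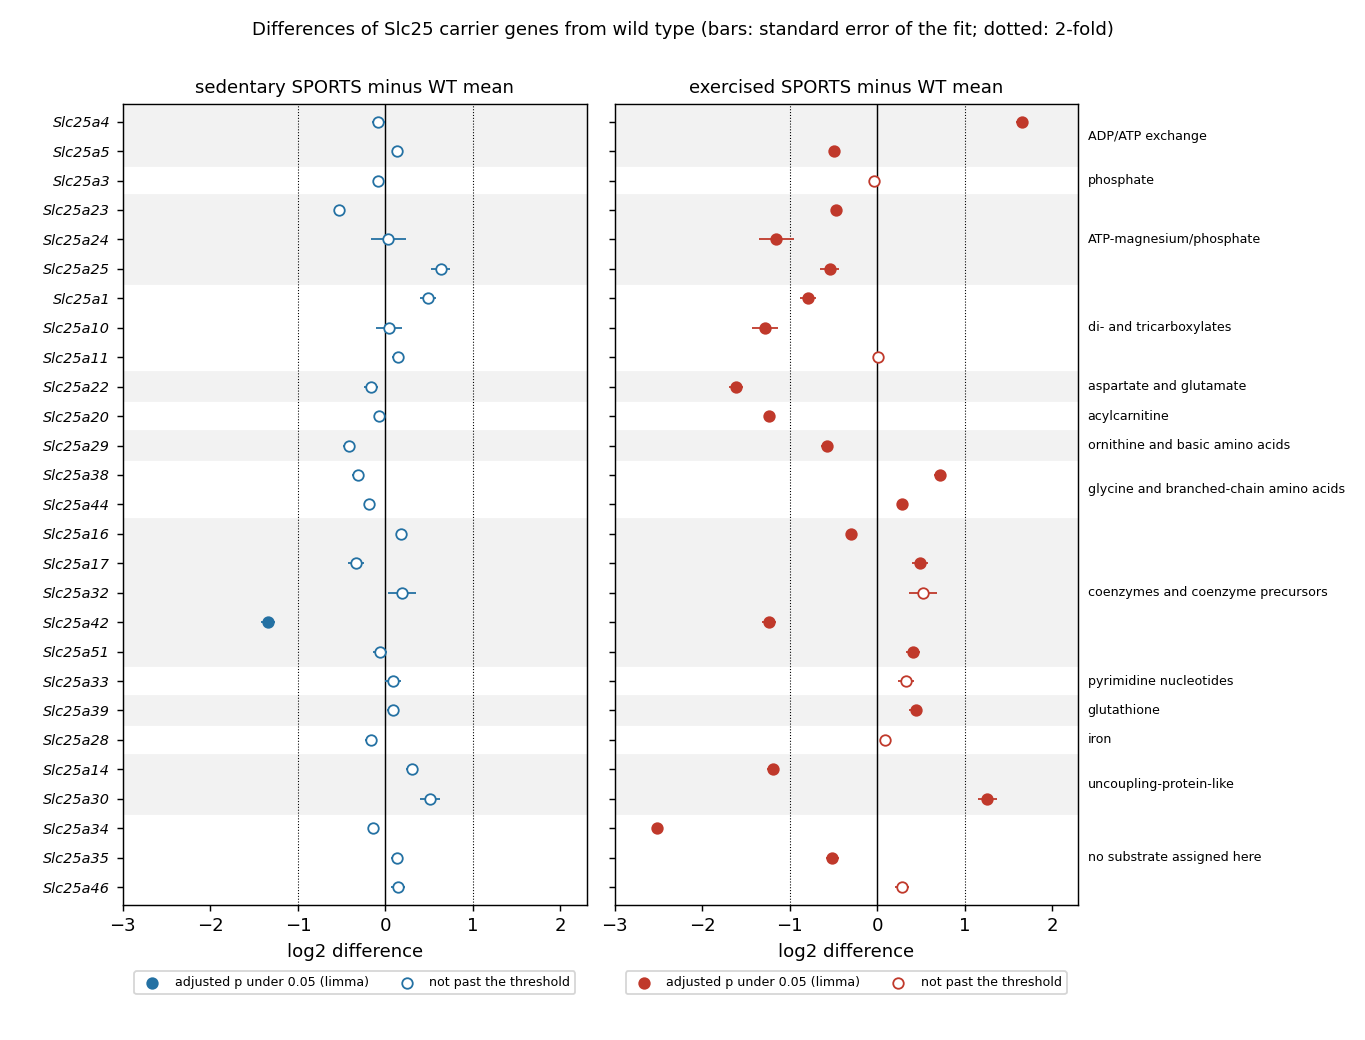
Log2 difference of 27 tested carriers from the WT mean (x axis) for the sedentary SPORTS array on the left and the exercised SPORTS array on the right, with bars for the standard error of the fit, filled points for adjusted p under 0.05 (limma) and dotted lines at 2-fold. On the left 1 carrier, Slc25a42, is filled, and on the right 21 are, 7 to the right of 0 and 14 to the left.

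The ADP/ATP exchangers, which swap matrix ATP for cytosolic ADP, lay on opposite sides of WT in exercised SPORTS muscle. Slc25a4, the isoform that predominates in heart and skeletal muscle, had levels of 4.91 and 4.97 in WT, 6.60 in exercised SPORTS and 4.86 in sedentary SPORTS muscle. The exercised array was the highest of the 4, and the other 3 lay close together. The difference from WT was 1.66 ± 0.07 (SE of the fit; adjusted p = 0.00468), or 3.16-fold, on the exercised array and -0.08 ± 0.07 (adjusted p = 0.462) on the sedentary array. Slc25a5, the isoform of many proliferating tissues, had levels of 6.79 and 6.79 in WT, 6.30 in exercised SPORTS and 6.92 in sedentary SPORTS muscle. Here the exercised array was the lowest, at -0.49 ± 0.06 from WT (adjusted p = 0.017), and the sedentary array was at 0.13 ± 0.06 (adjusted p = 0.252). A second Slc25a5 probe gave -0.58 and 0.33 for the same differences. The gene table lists 9 pseudogenes of Slc25a5 and 1 of Slc25a4, whose transcripts could share probe signal.

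Slc25a3, the phosphate carrier that feeds ATP synthase, did not pass in either comparison. Its levels were 5.83 and 5.84 in WT, 5.81 in exercised SPORTS and 5.76 in sedentary SPORTS muscle. All 4 values lay close together, with differences from WT of -0.03 ± 0.06 (adjusted p = 0.691) and -0.08 ± 0.06 (adjusted p = 0.417).

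The calcium-regulated ATP-magnesium/phosphate carriers set the adenine nucleotide content of the matrix, and all 3 that were tested fell in exercised SPORTS muscle. Slc25a24 had levels of 0.25 and -0.11 in WT, -1.08 in exercised SPORTS and 0.09 in sedentary SPORTS muscle. Lowest was the exercised array, and the sedentary value lay between the WT values. Its difference from WT was -1.15 ± 0.20 (adjusted p = 0.0284) on the exercised array and 0.03 ± 0.20 (adjusted p = 0.937) on the sedentary array. A second Slc25a24 probe was not well above background on any array. Slc25a25 had levels of 1.52 and 1.70 in WT, 1.07 in exercised SPORTS and 2.24 in sedentary SPORTS muscle. The SPORTS arrays lay on either side of the WT pair and were 2.25-fold apart. Against WT the exercised array differed by -0.54 ± 0.11 (adjusted p = 0.0406), which became -0.31 (adjusted p = 0.104) with scaling by the median, and the sedentary array by 0.63 ± 0.11 (adjusted p = 0.074). Slc25a23 had levels of 1.95 and 1.95 in WT, 1.48 in exercised SPORTS and 1.42 in sedentary SPORTS muscle. Both SPORTS values lay below both WT values, at -0.47 ± 0.06 (adjusted p = 0.018; -0.25 and adjusted p = 0.0526 with scaling by the median) on the exercised and -0.53 ± 0.06 (adjusted p = 0.0525) on the sedentary array. Over both SPORTS arrays it differed by -0.50 ± 0.13 (adjusted p = 0.604). Slc25a41, the fourth gene of this group, was well above background on no array.

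Among the carriers of di- and tricarboxylates, Slc25a10 fell, Slc25a11 did not pass, and Slc25a1 passed on the lower side but lay near background. Slc25a10, the dicarboxylate carrier, exchanges malate and succinate for phosphate, and its levels were -1.43 and -1.17 in WT, -2.58 in exercised SPORTS and -1.26 in sedentary SPORTS muscle. Sedentary SPORTS muscle lay between the WT values, and the exercised array below them. The differences were -1.28 ± 0.15 (adjusted p = 0.015), or 2.42-fold lower, and 0.04 ± 0.15 (adjusted p = 0.856). Slc25a11, the oxoglutarate carrier of the malate-aspartate shuttle, differed by 0.01 ± 0.06 (adjusted p = 0.889) on the exercised and 0.14 ± 0.06 (adjusted p = 0.227) on the sedentary array. Slc25a1, which exports citrate for lipid synthesis, was dim, with levels of -3.50 and -3.63 in WT, -4.35 in exercised SPORTS and -3.07 in sedentary SPORTS muscle. The exercised value was not well above background, so the sedentary array was at least 1.29-fold higher than it, and no bound against WT could be given. The measured difference from WT was -0.79 ± 0.09 (adjusted p = 0.0151), -0.16 (adjusted p = 0.289) with another background correction, and 0.11 with dim values set to the array's floor. The adipocyte markers Adipoq and Cfd also fell on the exercised array, and their part was not tested. The 4 on the array summed to 12.8 and 17 in WT, 2.18 in exercised SPORTS and 11 in sedentary SPORTS muscle. Cfd was the brightest of them, Cidec was well above background on WT array 2 only and Lep on none.

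Of the glutamate and aspartate carriers, Slc25a22 fell in exercised SPORTS muscle. Slc25a22, which imports glutamate with a proton, had levels of -0.02 and 0.09 in WT, -1.57 in exercised SPORTS and -0.13 in sedentary SPORTS muscle. The exercised array lay below the other 3, which lay close together. The differences from WT were -1.61 ± 0.08 (adjusted p = 0.00532), or 3.05-fold lower, and -0.17 ± 0.08 (adjusted p = 0.264). Slc25a18, the second glutamate carrier, had levels of -5.15 and -5.23 in WT, -2.61 in exercised SPORTS and -5.10 in sedentary SPORTS muscle. The exercised array was at least 2.02-fold above WT and at least 2.27-fold above the sedentary array, as bounds against the lowest signal well above background. It did not pass the filter for testing, and its second probe was not well above background on any array.

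Slc25a20 takes acylcarnitines into the matrix in exchange for carnitine, the step between the carnitine palmitoyltransferases. Its levels were 3.63 and 3.60 in WT, 2.38 in exercised SPORTS and 3.55 in sedentary SPORTS muscle. The exercised array was the lowest, at -1.23 ± 0.06 from WT (adjusted p = 0.00524), or 2.35-fold lower, and the sedentary array was at -0.07 ± 0.06 (adjusted p = 0.501). The transferases on either side of it also fell on the exercised array, with Cpt1b 2.01-fold lower (adjusted p = 0.00668) and Cpt2 2.66-fold lower (adjusted p = 0.00473) than WT.

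Carriers of other amino acids moved in different directions. Slc25a38, the glycine carrier needed for haem synthesis, had levels of 0.49 and 0.53 in WT, 1.24 in exercised SPORTS and 0.20 in sedentary SPORTS muscle. Highest was the exercised and lowest the sedentary array, 2.05-fold apart. The differences from WT were 0.72 ± 0.07 (adjusted p = 0.0102) and -0.31 ± 0.07 (adjusted p = 0.0907). Slc25a44, the branched-chain amino acid carrier, rose by 0.29 ± 0.06 (adjusted p = 0.0415) on the exercised array, a call that was lost with quantile normalization (0.20, adjusted p = 0.0903). Its second probe was well above background on only 1 array, so no difference is given for it. Slc25a29, which carries basic amino acids, fell by 0.57 ± 0.07 on the log2 scale on the exercised array (adjusted p = 0.0154) and differed by -0.42 ± 0.07 (adjusted p = 0.0684) on the sedentary array. The ornithine carriers Slc25a2 and Slc25a15 were not well above background on any array.

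Among the 6 tested carriers of coenzymes and their precursors, Slc25a42 stood below WT on both SPORTS arrays. Slc25a42, which brings coenzyme A into the matrix, had levels of 2.39 and 2.50 in WT, 1.21 in exercised SPORTS and 1.11 in sedentary SPORTS muscle. Both SPORTS values lay at least 2-fold below both WT values, and 1.92% of all genes tested were separated at least 2-fold in either direction. It differed from WT by -1.23 ± 0.08 (adjusted p = 0.00668) on the exercised and -1.34 ± 0.08 (adjusted p = 0.0382) on the sedentary array. Without a filter on dim genes, where both the fit and the adjustment run over more genes, the second of these had an adjusted p of 0.0836. Over both SPORTS arrays the difference was -1.29 ± 0.14 (adjusted p = 0.322), which did not pass. A second Slc25a42 probe, well above background on all 4 arrays, gave -1.29 on the exercised and -1.51 on the sedentary array.

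The other coenzyme carriers differed less, and the 3 that passed did so on the exercised array. Slc25a17, the peroxisomal carrier of coenzyme A and related nucleotides, rose by 0.49 ± 0.09 (adjusted p = 0.0294). Slc25a51, the carrier of NAD, rose by 0.41 ± 0.08 (adjusted p = 0.0352), and with quantile normalization this was 0.21 (adjusted p = 0.12). Slc25a16, linked to coenzyme A in the matrix, fell by 0.30 ± 0.06 on the log2 scale (adjusted p = 0.0427), and with scaling by the median this was -0.08 (adjusted p = 0.38). Slc25a32, the folate carrier, did not pass, with 0.53 (adjusted p = 0.0824). On the sedentary array these 4 lay between -0.34 and 0.19 from WT, and none passed.

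Slc25a39, the glutathione carrier, rose by 0.44 ± 0.07 (adjusted p = 0.0284) on the exercised array, and its second probe gave 0.39. The gene table lists 8 pseudogenes of Slc25a39. Slc25a33, a pyrimidine nucleotide carrier, differed by 0.33 (adjusted p = 0.0653). Slc25a28, mitoferrin 2, which imports iron, differed by 0.09 (adjusted p = 0.293), and its relative Slc25a37, mitoferrin 1, was not well above background on any array.

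The uncoupling-protein-like carriers Slc25a14 and Slc25a30 passed on opposite sides of WT in exercised SPORTS muscle. Slc25a14 had levels of 0.57 and 0.63 in WT, -0.59 in exercised SPORTS and 0.90 in sedentary SPORTS muscle. The exercised array was the lowest and the sedentary array the highest, 2.82-fold apart, and the differences from WT were -1.19 ± 0.07 (adjusted p = 0.00587) and 0.30 ± 0.07 (adjusted p = 0.1). Slc25a30 had levels of -1.10 and -0.93 in WT, 0.24 in exercised SPORTS and -0.51 in sedentary SPORTS muscle. Both SPORTS values lay above both WT values, with differences of 1.26 ± 0.11 (adjusted p = 0.00955) and 0.51 ± 0.11 (adjusted p = 0.0917). Over both SPORTS arrays Slc25a30 differed by 0.88 ± 0.32 (adjusted p = 0.696).

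Of the carriers given no substrate here, Slc25a34 had the largest difference of any tested carrier. Its levels were 0.98 and 0.98 in WT, -1.53 in exercised SPORTS and 0.85 in sedentary SPORTS muscle. The exercised array lay far below the other 3, which lay close together. The differences from WT were -2.51 ± 0.06 (adjusted p = 0.00424), or 5.71-fold lower, and -0.14 ± 0.06 (adjusted p = 0.234). Slc25a35, a close relative, fell by 0.51 ± 0.07 on the log2 scale on the exercised array (adjusted p = 0.0172). Slc25a46, an outer membrane protein that takes part in mitochondrial dynamics, differed by 0.28 ± 0.08 (adjusted p = 0.071).

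Some carriers lie next to each other in the gene table. Slc25a24 neighbours Slc25a54, Slc25a29 neighbours Slc25a47 and Slc25a23 neighbours Slc25a41 among protein-coding genes. In each of these 3 pairs the first gene was well above background on all 4 arrays and the second on none.

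Related genes were read from lists of the family's other symbols, its import machinery, other transporters of the mitochondrial membranes, shuttle enzymes and a respiratory chain reference. On the sedentary SPORTS array none of these lists had a gene that passed, where 6.27% of all genes tested did. On the exercised array 53.3% of all genes tested passed, 27.3% higher and 26.0% lower, and the list counts below stand beside that share. On the exercised array, of 4 tested family members under other symbols, 1 rose (Ucp3) and 1 fell (Mtch1, -0.43, adjusted p = 0.0214). Ucp3, the uncoupling protein of skeletal muscle, had levels of 2.36 and 2.56 in WT, 4.78 in exercised SPORTS and 1.54 in sedentary SPORTS muscle. The exercised array was the highest and the sedentary array the lowest, and the exercised array differed from WT by 2.32 ± 0.12 (adjusted p = 0.00526). The sedentary array differed by -0.92 ± 0.12 (adjusted p = 0.0561). Ucp1, which marks brown fat, was well above background on none of the arrays. Cidea, the other brown fat marker listed, was well above background on all 4, with levels of 2.76 and 2.76 in WT, -0.27 in exercised SPORTS and 3.84 in sedentary SPORTS muscle. It differed from WT by -3.02 (adjusted p = 0.00424) and 1.08 (adjusted p = 0.0367), and its part in the carrier differences was not tested.

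Of the 7 tested genes of carrier import, 2 rose and 1 fell on the exercised array, where 27.3% of all genes tested rose and 26.0% fell. At least 2-fold from WT were Timm29, a subunit of the inner membrane insertase for carriers, at 1.04 (adjusted p = 0.00595), and Timm10b, a chaperone of the same route, at -1.25 (adjusted p = 0.00524). The import receptor Tomm70 rose by 0.34 (adjusted p = 0.0407). Of 11 tested genes of other membrane transport, 1 rose and 3 fell, of which 2 are described. Mcu, the pore of the calcium uniporter, rose by 1.64 (adjusted p = 0.0047). Slc8b1, the sodium-calcium exchanger of the inner membrane, was at least 1.49-fold lower than WT (adjusted p = 0.0054). Letm1, an inner membrane protein of ion exchange, fell by 0.92 on the log2 scale (adjusted p = 0.00973).

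Among the 10 shuttle enzymes, 2 rose and 4 fell on the exercised array, against 27.3% and 26.0% of all genes tested. Gpd1, the cytosolic enzyme of the glycerol phosphate shuttle, which needs no Slc25 carrier, rose by 3.99 ± 0.07 (adjusted p = 0.00424). Mdh1, the cytosolic malate dehydrogenase of the malate-aspartate shuttle, fell by 0.68 on the log2 scale (adjusted p = 0.0106). Gpd2, the mitochondrial partner of Gpd1, rose by 0.65 (adjusted p = 0.0126), and Cpt1a, the liver-type transferase, fell by 0.85 (adjusted p = 0.0129), beside Cpt1b and Cpt2. In the 13 genes of the respiratory chain and matrix reference, such as Cs and Cox4i1, 0 rose and 1 fell (Ndufs1, -0.29, adjusted p = 0.0439), and all differences lay between -0.32 and 0.27. The median of that list was -0.12, against -0.18 over the 28 carriers, whose differences ran from -2.51 to 1.66.

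**Figure D3:**
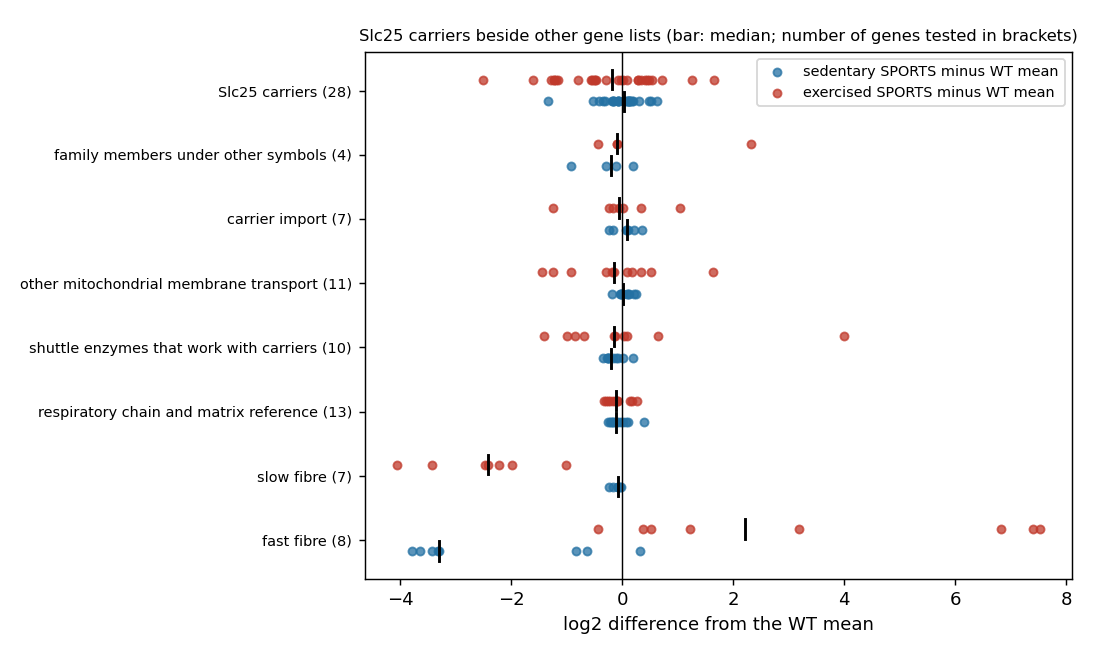
Log2 difference from the WT mean (x axis) for the tested genes of each list, with blue points for the sedentary and red points for the exercised SPORTS array and a black bar at each median. On the exercised array the carriers spread from -2.51 to 1.66, the respiratory chain reference from -0.32 to 0.27, and all 7 slow fibre markers lie below 0.

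Markers of some other cell types also moved on the exercised array, and their part in the carrier differences was not tested. Of all genes tested, 27.3% rose and 26.0% fell on that array. Of 4 endothelial markers 2 fell, and of 3 smooth muscle and pericyte markers 1 rose. Of 3 tested red blood cell markers 1 passed, Ahsp at 0.49, which was dim and well above background on the SPORTS arrays only. The brighter Alas2 and Hbb lay on the other side of WT, at -0.45 and -0.34, and did not pass. Neither tested Schwann cell marker passed. All 3 fibroblast markers fell, and their summed level was 115 and 111 in WT, 26 in exercised SPORTS and 68.6 in sedentary SPORTS muscle. All 3 macrophage markers fell, with sums of 1.95 and 1.31 in WT, 0.519 in exercised SPORTS and 3.47 in sedentary SPORTS muscle. Adgre1 among them was not well above background on the exercised array, where it was at least 2.09-fold lower than WT. All 7 slow fibre markers fell on the exercised array, with a median difference of -2.42, and of the 8 fast fibre markers 6 rose and 1 fell (Myh2). On the sedentary array 4 of the 8 fast fibre markers fell and none of the 7 slow fibre markers passed. Col1a1 (-1.41) and Acta2 (0.70) passed there, and the other fibroblast, smooth muscle and pericyte markers did not. The 3 macrophage markers lay 1.06 to 1.19 above WT on the sedentary array, and none of them passed.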

How the data were processed

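Agilent Feature Extraction 10.7.1.1 quantified the one-colour arrays, per the submitters' processing notes, from 100 ng of labelled RNA per the labels. The intensity values deposited by the authors are background-subtracted processed signals, per the file headers, with no scaling between arrays. The authors' deposited value table gives these arrays as log2 values centred on each probe's median, as set against the scanner values over 30015 probes (r = 1), and was an alternative. Its differences between arrays lay within 0.0032 of those scaled by the 75th percentile, so it could only repeat the main values. Control spots and outlier spots were left out. Values were log2 signal minus the array's 75th percentile. Accessions were matched to RefSeq symbols (GRCr8), naming 59.4% of 30015 probes, and a gene's brightest probe was used. Genes well above background on at least 2 of 4 arrays were tested with limma 3.58.1 (R 4.3.3), two-sided, with Benjamini-Hochberg adjusted p below 0.05 called: 2 SPORTS against 2 WT arrays (2 residual degrees of freedom), and a fit of 3 groups whose spread came from the WT pair. The fits were tested on simulated data. A probe not well above background in a group was given a bound, computed against whichever was higher, its measured value or the lowest signal that the array had well above background, and the adjusted p beside it is of the measured values. No probe was saturated. Normexp (offset 50) used the median signal and median local background, intensity columns deposited by the authors per the file headers. Python 3.11.15 made the summaries.

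The carriers, gene lists and tests were chosen with earlier results of these data known. Per-array values are given for carriers at least 2-fold apart between any 2 of the groups, for the 10 called carriers of smallest adjusted p, and for tested ADP/ATP, phosphate, acylcarnitine and glutamate carriers. From other lists, genes at least 2-fold apart are named, at most 4 a list. Slc25a18, Slc25a23, Mtch1, Tomm70, Letm1, Mdh1, Gpd2, Cpt1a, Ndufs1 and the remaining carriers and list genes given by a difference alone were named outside that rule, after their values were seen. Groups came from the source names in the labels. A carrier and a gene of the lists are counted but not reported here by name.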

Additional observations from a re-analysis of the deposited data

How the results depend on the processing

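Alternatives were scaling by the median, quantile normalization, normexp background correction, filters on dim genes, the authors' value table, the mean of a gene's probes, a floor on dim values, a variance trend and leaving out each array. For both SPORTS against both WT arrays, the count of carriers called was 0 under all of them that kept 4 arrays. Leaving out 1 SPORTS array repeats the comparison of the other with WT, reported above, so it is no separate check. For sedentary SPORTS against WT the count of 1 became 5 with normexp, 0 with no filter on dim genes, 4 with the filter on all 4 arrays, 2 with the floor and 6 with the variance trend. Slc25a42 was called in each of these but the one with no filter. For exercised SPORTS against WT the count of 21 became 11 with no filter, 10 of them shared, and lay between 20 and 22 otherwise. The count of 10 carriers at least 2-fold apart between the SPORTS arrays ran from 7 to 11. The share of all genes past each threshold is given for the main values only. These counts under alternatives therefore cannot be set against all genes. Where the reported value or its alternative was past the threshold, the pair differed in sign for Slc25a25 and Slc25a1. Slc25a25 was 0.05 over both SPORTS arrays, -0.54 from WT on the exercised array alone and 0.63 on the sedentary array alone. Slc25a1 on the exercised array became 0.11 with the floor. Signs turned in at least 1 alternative for 17 of the 28 carriers over both SPORTS arrays, 3 in sedentary SPORTS against WT, 5 in exercised SPORTS against WT (Slc25a1 among them) and 5 between the SPORTS arrays. The alternatives for both SPORTS arrays include leaving out 1 of them, which gives the other array's difference from WT and so another comparison. Slc25a4, for example, was 0.79 over both SPORTS arrays and -0.08 on the sedentary array alone, and Slc25a14 was -0.44 and 0.30. Causes of these changes were not tested. With no filter the fit and the adjustment both run over more genes, Slc25a1 lies near background, and leaving out a SPORTS array changes the comparison.

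Without a WT array the fits of 3 groups have no residual degree of freedom, so those differences are values with no test. Naming genes by the scanner files' own gene name column was not run, as the columns used here hold accessions. No paired analysis was possible because the labels link no samples between the groups. Signal over background limits Slc25a1 and the 10 carriers not tested.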
